A study of Mus musculus with 32 samples.

Results

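The kinesin, dynein and dynactin genes were taken as the protein-coding genes whose GENCODE M21 symbol begins with Kif or Kifc and a digit, with Dync or with Dynl, together with Klc1 to Klc4 and Dctn1 to Dctn6. Among the counted genes 74 symbols matched, 5 of them were not protein coding, and 69 genes were left of 54532. They comprised 3 kinesin-1 heavy chains, 4 kinesin light chains, 39 motors of the other kinesin families, 16 dynein chains, 6 dynactin subunits and Kif1bp, whose symbol matches but whose product binds kinesins and is not a motor. Striatal RNA had been sequenced from 32 mice at 6 months of age on a C57BL/6J background, with 8 mice in each of 4 genotypes. Wild-type mice carried neither change. Msh3-/- mice were homozygous for a CRISPR/Cas9 knockout of the mismatch repair gene Msh3, bred from a single knockout line. zQ175 mice carried a knock-in allele of mouse Htt with a highly expanded CAG repeat, the mutation of Huntington's disease, and zQ175:Msh3-/- mice carried both. Each group held 4 males and 4 females, except zQ175:Msh3-/- with 5 males and 3 females. The genotypes were bred as littermates from one kind of cross. The labels do not give the litter of each mouse, and litter was not in the model. The knock-in allele is read from the Htt locus itself and is not limited to one cell type, and the RNA is that of whole striatum.

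Kinesins and cytoplasmic dynein are motor proteins that walk along microtubules. Most kinesins carry cargo towards the plus end, which in axons means away from the cell body, and cytoplasmic dynein with its activator dynactin carries cargo back. In long neurons such as the spiny projection neurons of the striatum this traffic moves synaptic vesicle precursors, mitochondria, endosomes and growth factor signals, and huntingtin, the product of Htt, is itself known as a scaffold that binds dynein, dynactin and kinesin-1. Other members of the same families build cilia or the mitotic spindle.

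The deposited counts summed to between 12359347 and 25030335 reads per mouse. Msh3, counted over the whole gene and so including exons outside the deletion, lay between 22.9 and 27.5 counts per 1000000 reads (CPM, after TMM normalisation) in wild-type mice and between 22.8 and 27.4 in zQ175 mice, against 10.4 to 13.6 in Msh3-/- and 11.1 to 14.2 in zQ175:Msh3-/- mice. The mice labelled Msh3-/- thus all lay below the others, but the whole-gene count does not show that both copies were lost, and it does not check the zQ175 allele. Markers of striatal spiny projection neurons were present in all groups, and 8 of the 9 were called lower in the zQ175 group against the wild-type group by the test given below. Their summed level ranged from 6003 to 7355 CPM in wild-type and from 3408 to 4468 CPM in zQ175 mice. Markers of the choroid plexus, which lies in the ventricle beside the striatum, summed to between 32.7 and 2987 CPM, and the 7 mice above 500 CPM were left out in an alternative chosen after seeing the data. Cortical excitatory neuron markers summed to 46.1 to 292 CPM in wild-type, 36.8 to 374 in zQ175, 47.9 to 440.2 in Msh3-/- and 125 to 632 in zQ175:Msh3-/- mice. Their median log2 fold change was 0.58 in zQ175 against wild-type and 0.59 in zQ175:Msh3-/- against Msh3-/- mice. The test given below called 0 of these 5 markers in either. Beyond a fit with this sum as a covariate, the part of cortical cells in the members' values was not tested. In bulk tissue, fewer cells of a type and less RNA per cell cannot be told apart.

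Levels were compared between members in transcripts per 1000000 (TPM), which corrects for gene length. Of the 69 members, 20 had a mean above 100 TPM over the 32 mice and 31 were at 10 TPM or less. The neuronal kinesin-1 heavy chain Kif5a was the most abundant at 1459.8 TPM. It was followed by the dynein light chain Dynll2 at 802 TPM, the kinesin light chain Klc1 at 539 TPM, the dynein light chain Dynlrb1 at 408 TPM and the synaptic vesicle precursor motor Kif1a at 371 TPM. In wild-type mice the 3 kinesin-1 heavy chains summed to 1897 ± 85.2 TPM, the 9 dynein light chains to 1615 ± 43.6 TPM, the 6 dynactin subunits to 827 ± 27.7 TPM and the 5 heavy, intermediate and light intermediate chains of dynein-1 to 522 ± 13.8 TPM (mean ± SD, n = 8). The motors of the spindle and of cytokinesis were sparse, and the 4 kinesin-5 and kinesin-6 motors summed to 3.62 ± 0.963 TPM. Kif2b had 0 reads in the 32 mice, and Kif12, Kif28, Kif18b, Kif2c and Kif14 had between 8 and 225 reads in all. These 6 genes did not pass the filter on low counts, and the other 63 were tested among 16610 genes.

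**Figure D1:**
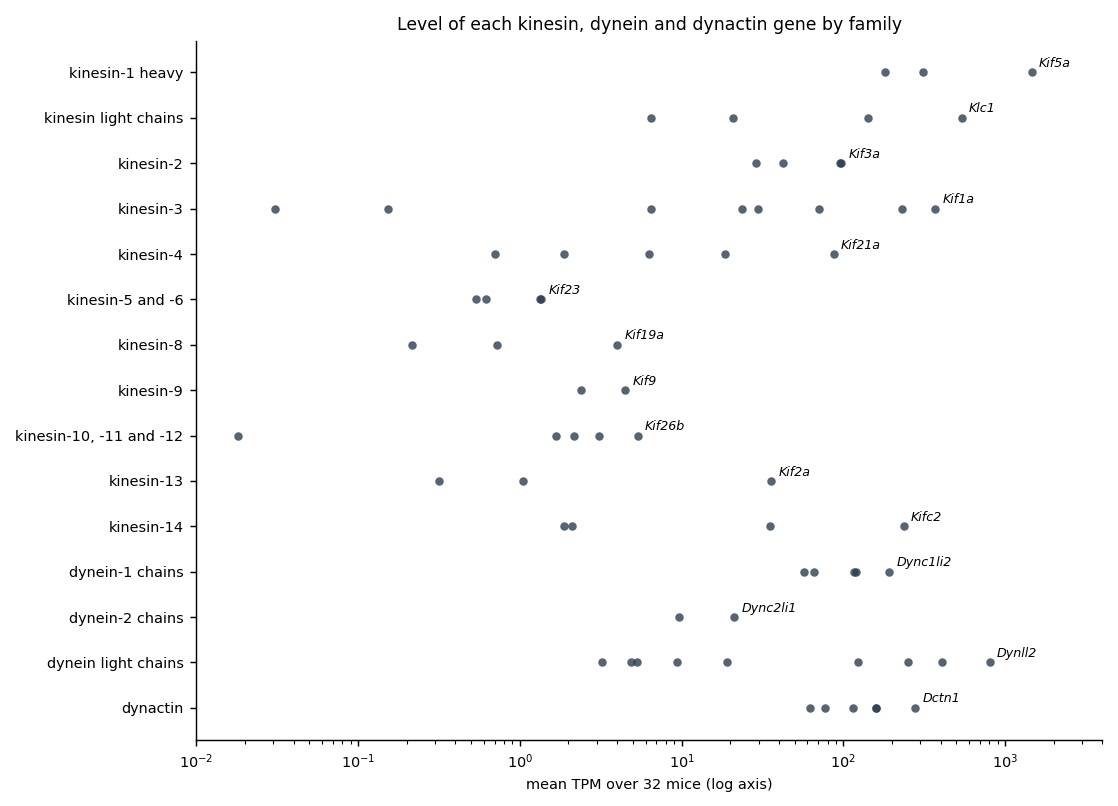
Mean TPM over 32 mice on a log axis for each member, grouped by family, with the most abundant gene of each family named; Kif2b, at 0, and Kif1bp, which is no motor, are not drawn. Kif5a lies furthest to the right, and the kinesin-5 and kinesin-6 motors all lie below 10 TPM.

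The first comparison set zQ175 against wild-type mice and asked which motor genes differed. A gene was called where edgeR's quasi-likelihood test gave an adjusted p under 0.05 over all genes tested and the fold change was at least 1.2. Of the 63 members, 6 were called, or 9.52%, against 11.6% of all genes tested. Kif7, Kif4, Dynlt1c and Kif16b were higher, 6.35% of members against a background of 4.7%, and Kif17 and Kif27 were lower, 3.17% against 6.89%. By level, 0 of the 20 members above 100 TPM were called by edgeR, against 13.6% of the 1731 genes at that level, and 5 of the 25 tested members at 10 TPM or less (20%), against 13.8% of 6746 genes. With the adjusted p alone 21 members passed, 16 higher and 5 lower, which is 33.3% against 26.5% of all genes. The split of all genes by direction under this rule is not given here, so no lean of the members can be read from theirs. The median log2 fold change of the members was 0.07 and that of all genes tested 0.01.

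Among the kinesin-1 heavy chains, which carry vesicles and mitochondria along axons, Kif5c moved most. Kif5c levels ranged from 915 to 1017 CPM with a median of 979 in wild-type mice, and from 759.5 to 902 with a median of 843 in zQ175 mice. The 2 groups did not overlap, which held for 3 members in this comparison (Kif5c, Kif17 and Kif7) and for 6.63% of all genes. Kif5c was lower by a log2 fold change of -0.21 (SE 0.0366, edgeR adjusted p = 2.39e-05; exact two-sided permutation test p = 0.000155, the smallest that 12870 arrangements allow), a change under 1.2-fold. Kif5a, by contrast, had a fitted log2 difference of 0.10 (95% interval 0.01 to 0.20, adjusted p = 0.0962) and ranged from 3553 to 4074 CPM in wild-type and from 3455 to 4536 CPM in zQ175 mice, with overlapping groups. Kif5b, the heavy chain made in most cell types, differed by -0.01 (95% interval -0.10 to 0.08).

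The shares of the 3 heavy chains in their summed TPM differed as well, but are not a separate result. A lower Kif5c by itself lowers its own share and raises that of Kif5a. Kif5a made up 73.1% ± 0.558 of the kinesin-1 heavy chain TPM in wild-type mice and 76.2% ± 1.18 in zQ175 mice (SD, n = 8). Kif5c made up 17.4% ± 0.418 and 14.6% ± 1.17. The lowest Kif5a share in zQ175 mice, 74.9%, was above the highest in wild-type mice, 74.4%, and the highest Kif5c share, 15.8%, was below the lowest in wild-type mice, 16.5%. Among mice without Msh3, Kif5c made up between 16.1% and 18.6% in Msh3-/- and between 13.1% and 15.9% in zQ175:Msh3-/- mice, again with no overlap. These shares were chosen after their values were seen and are given with no test, and how often such shares separate was not counted.

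**Figure D2:**
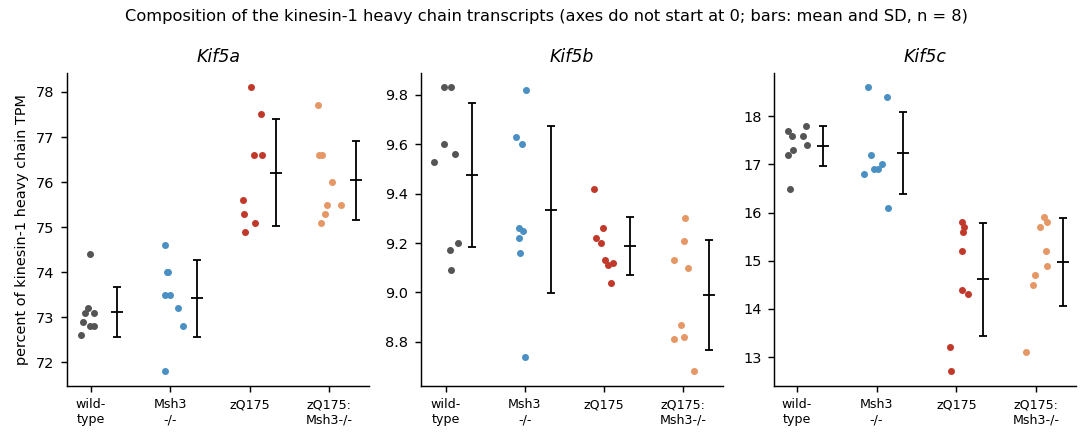
Share of each kinesin-1 heavy chain in the summed TPM of Kif5a, Kif5b and Kif5c, in percent, for each mouse (points) with the mean and SD of 8 mice (bars); the axes do not start at 0. Kif5c lies between 16.1% and 18.6% in the mice without the zQ175 allele and between 12.7% and 15.9% in those with it.

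The kinesin light chains join the heavy chains to cargo. Klc1, the most abundant of them, ranged from 467 to 524 CPM in wild-type and from 514 to 572 CPM in zQ175 mice, and was higher by 0.12 on the log2 scale (SE 0.0387, edgeR adjusted p = 0.018). Klc4 was higher by 0.20 (SE 0.0611, adjusted p = 0.0122). Both changes were under 1.2-fold and both pairs of groups overlapped. Klc2 differed by 0.10 (adjusted p = 0.131) and Klc3, at 6.5 TPM, by -0.23 (adjusted p = 0.0772), neither past the threshold.

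The member with the smallest p was Kif17, a kinesin-2 motor known for carrying NMDA receptor vesicles in dendrites. Kif17 ranged from 53 to 67.3 CPM with a median of 62.9 in wild-type mice and from 41.5 to 48.9 CPM with a median of 44.3 in zQ175 mice. Every zQ175 mouse lay below every wild-type mouse, and the log2 fold change was -0.44 (SE 0.0548, edgeR adjusted p = 8.4e-08; exact permutation p = 0.000155). The other kinesin-2 genes, Kif3a, Kif3b and Kif3c, which together serve axonal transport and the building of cilia, had fitted log2 differences of 0.04, 0.01 and 0.02 with adjusted p between 0.371 and 0.888. Kif17 shares its strand on chromosome 4 with Sh2d5. GENCODE gives 1 of 4 Kif17 transcripts an exon within Sh2d5 exons, and the shared stretch is 74 bases, or 1.62% of Kif17 exon bases. Sh2d5 fell too, by 0.65 on the log2 scale from a mean of 238 CPM in wild-type mice. Its part in the Kif17 value was not tested, nor was that of the lower spiny projection neuron markers.

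In the kinesin-3 family the endosome motor Kif16b was called. Kif16b ranged from 12.1 to 14.6 CPM in wild-type and from 14 to 17.9 CPM in zQ175 mice, with a log2 fold change of 0.28 (SE 0.0571, edgeR adjusted p = 0.000266). The lowest zQ175 mouse lay below the highest wild-type mouse, so the groups overlapped. Kif1a, whose loss impairs delivery of synaptic vesicle precursors, ranged from 1041 to 1215 CPM in wild-type and from 1205 to 1299.6 CPM in zQ175 mice, and was higher by 0.14 (SE 0.0321, adjusted p = 0.000746). Kif1b, a carrier of mitochondria and synaptic vesicle precursors, was higher by 0.09 (adjusted p = 0.0382). Kif1c, Kif13a and Kif13b did not pass, with fitted log2 differences from -0.10 to 0.04.

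The kinesin-4 family held 3 of the 6 called members. Kif7, a regulator of Hedgehog signalling at the tip of the primary cilium, ranged from 2.57 to 3.14 CPM in wild-type and from 3.67 to 4.91 CPM in zQ175 mice. No mouse of one group reached the other, and the log2 fold change was 0.58 (SE 0.107, edgeR adjusted p = 7.35e-05; exact permutation p = 0.000155). Its paralogue Kif27, known from motile cilia, moved the other way. Kif27 ranged from 12.1 to 17.3 CPM with a median of 15.4 in wild-type and from 9.89 to 13.5 CPM with a median of 11.2 in zQ175 mice (log2 fold change -0.42, SE 0.0782, adjusted p = 8.34e-05). Kif4, a chromosome-bound motor of dividing cells, rested on 779 reads in all mice and ranged from 0.978 to 1.82 CPM in wild-type and from 1.57 to 2.13 CPM in zQ175 mice, with a log2 fold change of 0.56 (SE 0.169, adjusted p = 0.0119). Limma on the TPM scale gave 0.21 to 0.45 for Kif4 (adjusted p from 0.0421 to 0.0774). Without the 7 mice high in choroid plexus markers Kif4 was no longer called (0.48, adjusted p = 0.0766), while Kif7 (0.59) and Kif27 (-0.49) still were. Kif21a and Kif21b, which tune microtubule growth in neurons, differed by 0.08 and 0.14 (adjusted p = 0.112 and 0.0652).

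Summed markers of dividing cells, which stand beside Kif4, lay between 5.82 and 17.5 CPM in wild-type and between 7.74 and 15 CPM in zQ175 mice, and edgeR called 0 of 5 tested markers (0 at an unadjusted p under 0.05; 0 by DESeq2 and by limma). Summed ependymal markers, from the ciliated lining of the ventricle and beside Kif27, lay between 24.4 and 41.8 CPM and between 19.6 and 37.4 CPM, with 0 of 6 markers called by edgeR (0 at an unadjusted p under 0.05; 0 by DESeq2 and by limma). With the ependymal sum as a covariate Kif27 fell by 0.40 on the log2 scale (adjusted p = 5.22e-05) and Kif7 higher by 0.60 (adjusted p = 8.15e-06). On the other strand from Kif7 lie Ticrr, at 0.279 CPM on average in wild-type mice, and 9330171B17Rik, at 1.08 CPM in wild-type and 1.11 CPM in zQ175 mice. The strand setting of the authors' counting is not given in the sources used here, so reads of overlapping genes on opposite strands may not have been told apart.

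Among the spindle and minus-end motors the changes were small or the genes sparse. Kif11, the motor that pushes spindle poles apart, differed by 0.34 (adjusted p = 0.0817), and Kifc1, a minus-end motor of the spindle, by 0.40 (adjusted p = 0.0919). The neuronal minus-end motor Kifc2 was higher by 0.16 (SE 0.0463, edgeR adjusted p = 0.00804), under 1.2-fold, and ranged from 259.8 to 325 CPM in wild-type and from 305 to 352 CPM in zQ175 mice. Kifc3 differed by -0.01 (95% interval -0.10 to 0.08). Kif1bp was higher by 0.11 (SE 0.0304, adjusted p = 0.00524).

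Dynein-1 carries cargo towards the cell body, and its 5 heavy, intermediate and light intermediate chains had fitted log2 differences from 0.03 to 0.14. Its motor subunit Dync1h1 ranged from 593 to 746 CPM in wild-type and from 666 to 778 CPM in zQ175 mice, higher by 0.12 (SE 0.0422, edgeR adjusted p = 0.0293). The cargo-binding intermediate chain Dync1i1 was higher by 0.14 (SE 0.0512, adjusted p = 0.0388). Both changes were under 1.2-fold, with overlapping groups. Dync1i2, Dync1li1 and Dync1li2 did not pass, with adjusted p of 0.158, 0.453 and 0.0652. The dynein-2 chains Dync2h1 and Dync2li1, which return cargo from the tip of cilia, differed by -0.01 and 0.10 and did not pass.

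The dynein light chains serve as adaptors and, for Dynll1 and Dynll2, also bind many proteins outside dynein. Dynll1 ranged from 163 to 177 CPM in wild-type and from 139 to 165 CPM in zQ175 mice and fell by 0.18 on the log2 scale (SE 0.0427, edgeR adjusted p = 0.00141), under 1.2-fold. On the TPM scale limma gave -0.10 for Dynll1, not past the threshold (adjusted p from 0.211 to 0.289). Dynlrb1 was higher by 0.09 (adjusted p = 0.0293). Dynll2 differed by -0.08 (95% interval -0.16 to -0.00, adjusted p = 0.121). Dynlt1c was called at 0.38 (SE 0.141, adjusted p = 0.041), on 1244 reads in all mice, with 1.29 to 2.45 CPM in wild-type and 1.62 to 3.32 CPM in zQ175 mice. This value is uncertain, since 79.69% of its 100-base words occur in the near-identical copies Dynlt1a, Dynlt1b and Dynlt1f or a pseudogene. Summed to 1 gene, the 4 copies ranged from 19.3 to 26.4 CPM in wild-type and from 21.2 to 25 CPM in zQ175 mice and differed by 0.09 (adjusted p = 0.267).

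Of the dynactin subunits, Dctn3, a part of the shoulder that joins the sidearm to the filament, was lower. It ranged from 63.6 to 77.7 CPM with a median of 69.1 in wild-type and from 56.6 to 68.8 CPM with a median of 61.1 in zQ175 mice (log2 fold change -0.18, SE 0.0426, edgeR adjusted p = 0.00153). Dctn2 and Dctn4 were higher by 0.12 and 0.09 (adjusted p = 0.014 and 0.0277). All 3 changes were under 1.2-fold. Dctn1, the subunit that binds dynein and microtubules, differed by 0.07 (95% interval 0.01 to 0.14, adjusted p = 0.0893), and Dctn5 by 0.00 (95% interval -0.06 to 0.06).

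**Figure D3:**
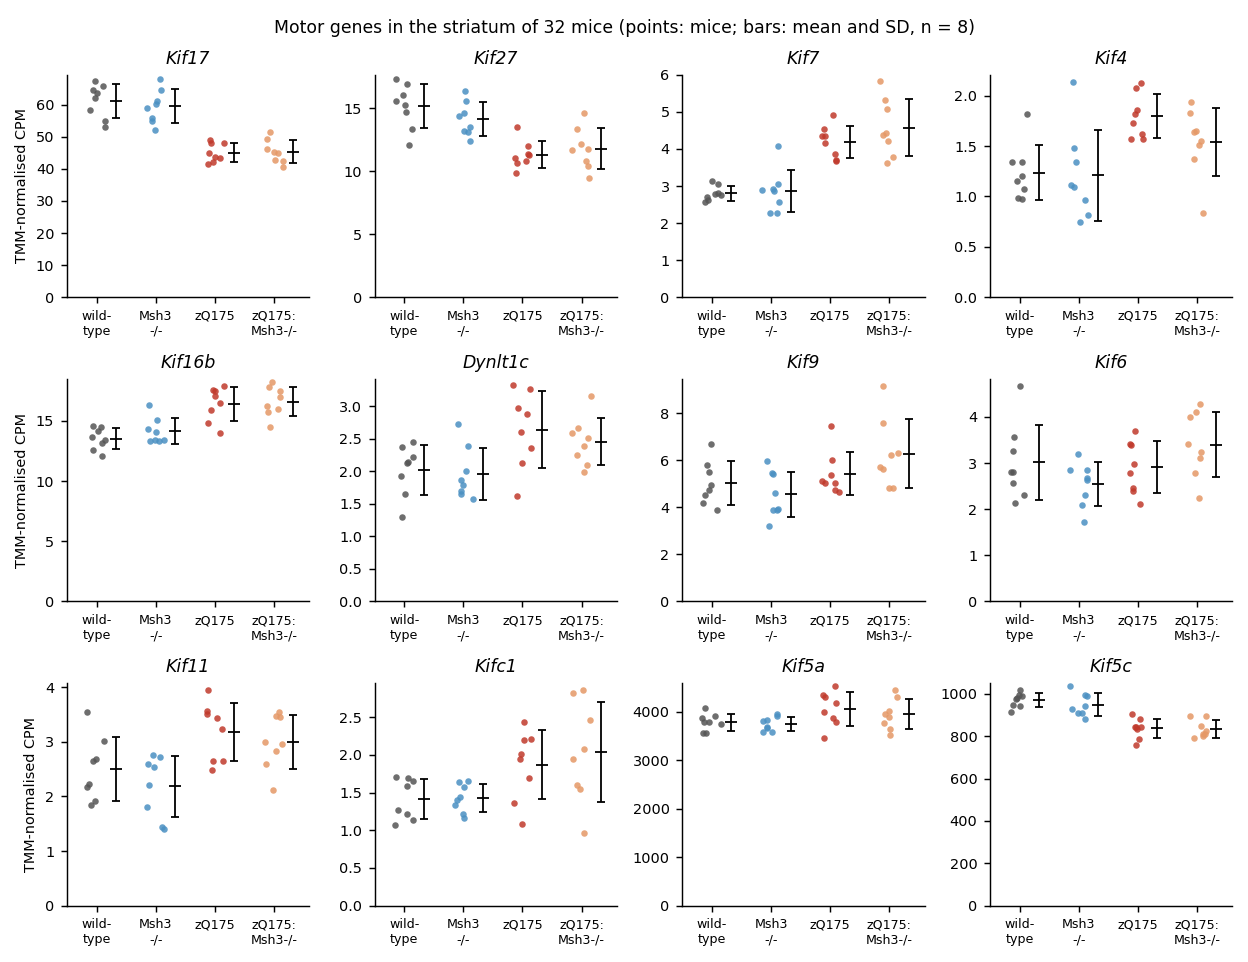
TMM-normalised CPM in each of 32 mice (points) with the mean and SD of 8 mice per genotype (bars) for the 10 members called in either zQ175 comparison and for Kif5a and Kif5c, which were not called; each panel starts at 0. For Kif17 all mice with the zQ175 allele lie between 40.6 and 51.4 CPM and all mice without it between 52.2 and 68 CPM.

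The second comparison repeated the contrast in mice that lack Msh3, zQ175:Msh3-/- against Msh3-/-, and shares no mouse with the first. Here 7 of 63 members were called, 11.1% against 10.6% of all genes tested. Kif7, Kif9, Kif6, Kif11 and Kifc1 were higher, 7.94% against 4.68%, and Kif17 and Kif27 lower, 3.17% against 5.96%. With the adjusted p alone 21 members passed, 15 higher and 6 lower, 33.3% against 24.1%, again without the split of all genes by direction. The members' median was 0.08 and that of all genes 0.01. Kif17, Kif7 and Kif27 were called in both comparisons, 4.76% of members against 7.29% of all genes tested. Of the other members called in the first, Kif16b was higher here by 0.23 (edgeR adjusted p = 0.00268), under 1.2-fold. Kif4 (0.38, adjusted p = 0.11) and Dynlt1c (0.33, adjusted p = 0.0982) did not pass.

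Kif17 ranged from 52.2 to 68 CPM with a median of 59.7 in Msh3-/- and from 40.6 to 51.4 CPM with a median of 45.1 in zQ175:Msh3-/- mice, again with no overlap, and the log2 fold change was -0.39 (SE 0.0553, edgeR adjusted p = 9.7e-07; exact permutation p = 0.000155). Kif1a, at 1048 to 1172 CPM against 1185 to 1325 CPM, was the other member whose groups did not overlap here, where 5.39% of all genes did not. It was higher by 0.13 (SE 0.0321, adjusted p = 0.0019). Kif7 ranged from 2.27 to 4.08 CPM and from 3.61 to 5.83 CPM, with a log2 fold change of 0.68 (SE 0.107, adjusted p = 7.74e-06). Kif27 ranged from 12.4 to 16.4 CPM and from 9.51 to 14.6 CPM, with a log2 fold change of -0.26 (SE 0.079, adjusted p = 0.0125), just at the 1.2-fold limit of 0.263. This Kif27 call was lost under 7 of 14 alternatives, among them limma on the TPM scale, which gave -0.16 to -0.14 (adjusted p from 0.164 to 0.221).

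The kinesin-9 motors Kif9 and Kif6, both known from motile cilia, were called in this comparison and not in the first. Kif9 ranged from 3.22 to 5.96 CPM in Msh3-/- and from 4.81 to 9.17 CPM in zQ175:Msh3-/- mice (log2 fold change 0.46, SE 0.135, edgeR adjusted p = 0.0109). Kif6 ranged from 1.73 to 3.2 CPM and from 2.24 to 4.29 CPM (0.41, SE 0.153, adjusted p = 0.0447). In the first comparison the values were 0.11 and -0.06, and the difference of the 2 effects was 0.35 (95% interval -0.04 to 0.74) for Kif9 and 0.47 (95% interval 0.03 to 0.91) for Kif6, both with an adjusted p of 0.999. Ependymal markers summed to between 20.1 and 37.1 CPM in Msh3-/- and between 17.8 and 56 CPM in zQ175:Msh3-/- mice. With that sum as a covariate the log2 fold changes were 0.42 for Kif9 (adjusted p = 0.00239) and 0.38 for Kif6 (adjusted p = 0.0294).

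Kif11 and Kifc1 were the other members called here. Kif11 ranged from 1.4 to 2.76 CPM in Msh3-/- and from 2.11 to 3.54 CPM in zQ175:Msh3-/- mice (log2 fold change 0.43, SE 0.15, edgeR adjusted p = 0.0321). Kifc1 ranged from 1.16 to 1.65 CPM and from 0.964 to 2.86 CPM (0.51, SE 0.179, adjusted p = 0.0327). Both lost the call without the 7 mice high in choroid plexus markers (log2 fold changes 0.34 and 0.42, adjusted p = 0.158 and 0.19), as did Kif6 (0.49, adjusted p = 0.0626). Limma on the TPM scale called neither Kifc1 (0.34 to 0.46, adjusted p from 0.0567 to 0.109) nor Kif6 (0.28 to 0.37, adjusted p from 0.063 to 0.0932). Kifc1 shares 17.03% of its 100-base words with the copy Kifc5b, and the pair summed to 1 gene was higher by 0.39 (adjusted p = 0.0179). Of the dividing cell markers, Birc5 was called higher by edgeR in this comparison, 1 of 5 tested, against 4.68% of all genes. DESeq2 called 0 of them and limma 2, and 2 had an unadjusted edgeR p under 0.05, as had 34.9% of all genes. The summed markers ranged from 6.19 to 12.5 CPM in Msh3-/- and from 8.67 to 18.8 CPM in zQ175:Msh3-/- mice. The part of dividing cells in these values was not tested.

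The 9 members past the adjusted p but under 1.2-fold in both comparisons were Kif5c (-0.19 here, edgeR adjusted p = 0.000198), Dynll1 (-0.21, 0.00033), Dctn3 (-0.18, 0.0019), Kif1a, Kif1b (0.13, 0.00263), Dync1h1 (0.17, 0.00214), Dynlrb1, Dctn4 and Kif26b. Of all genes tested, 26.5% passed the adjusted p in the first comparison and 24.1% in the second. The share that did so in both while under 1.2-fold was not counted. On the TPM scale limma gave values not past the threshold for Dynll1 in both comparisons (-0.14 here, adjusted p from 0.067 to 0.0974) and for Dctn3 here (-0.11, adjusted p from 0.0539 to 0.0767), and gave -0.12 for Kif5c here (adjusted p from 0.0205 to 0.0281). Across the 63 members the 2 effects had Pearson's r = 0.707, against 0.743 across all genes tested, and 54 members (85.7%) had the same sign, against 77.8% of all genes. The points are genes, whose levels are not independent of one another, and each group's 8 mice enter all of them.

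**Figure D4:**
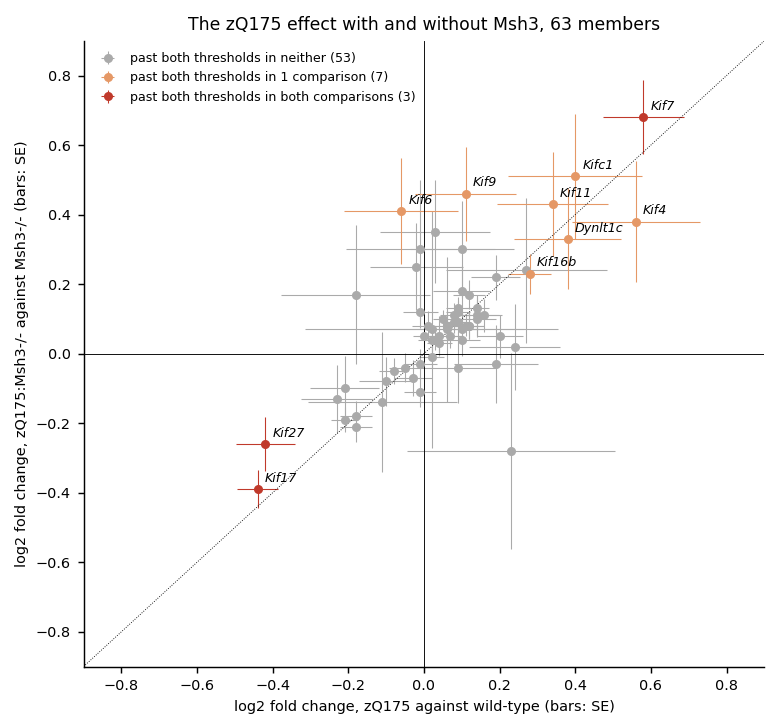
Log2 fold change of the 63 tested members in zQ175 against wild-type mice (horizontal) and in zQ175:Msh3-/- against Msh3-/- mice (vertical), with standard errors; the dotted line marks equal effects. Kif17, Kif27 and Kif7 (red) were called in both comparisons, 7 genes (orange) in 1 and 53 (grey) in neither.

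The third comparison asked whether loss of Msh3 altered these genes in mice with the zQ175 allele. Between zQ175:Msh3-/- and zQ175 mice edgeR called 0 of 63 members, against 0.00602% of all genes, which is Msh3 itself. At an unadjusted edgeR p under 0.05 there was 1 member, Dynlt1b (adjusted p = 0.999), and 614 of 16610 genes, and DESeq2 and limma also called 0 members. For 43 of the 63 members the 95% interval of the difference lay within 1.2-fold in either direction. Kif17 differed by 0.00 (95% interval -0.11 to 0.12), Kif7 by 0.13 (-0.08 to 0.34), Kif27 by 0.06 (-0.11 to 0.22), Kif5c by -0.01 (-0.08 to 0.07), Kif5a by -0.04 (-0.14 to 0.05) and Kif16b by 0.02 (-0.10 to 0.13). The zQ175 effects on Kif17 (-0.44), Kif7 (0.58), Kif27 (-0.42), Kif5c (-0.21) and Kif16b (0.28) each lay further from 0 than these intervals reach. These effects have intervals of their own, such as -0.58 to -0.26 for Kif27, and both comparisons use the same zQ175 mice. The values set side by side concern a full reversal only, and a partial one was not tested. For the sparse Kif4 the interval was wide, -0.55 to 0.13.

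Between Msh3-/- and wild-type mice edgeR also called 0 of 63 members against 0.00602% of all genes. At an unadjusted edgeR p under 0.05 there was 1 member, Dync2h1, and 846 genes. In edgeR's test of the difference between the 2 zQ175 effects 0 members and 0% of all genes were called, with Kif6 and 737 genes at an unadjusted p under 0.05. DESeq2 and limma called 0 members in both.

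**Figure D5:**
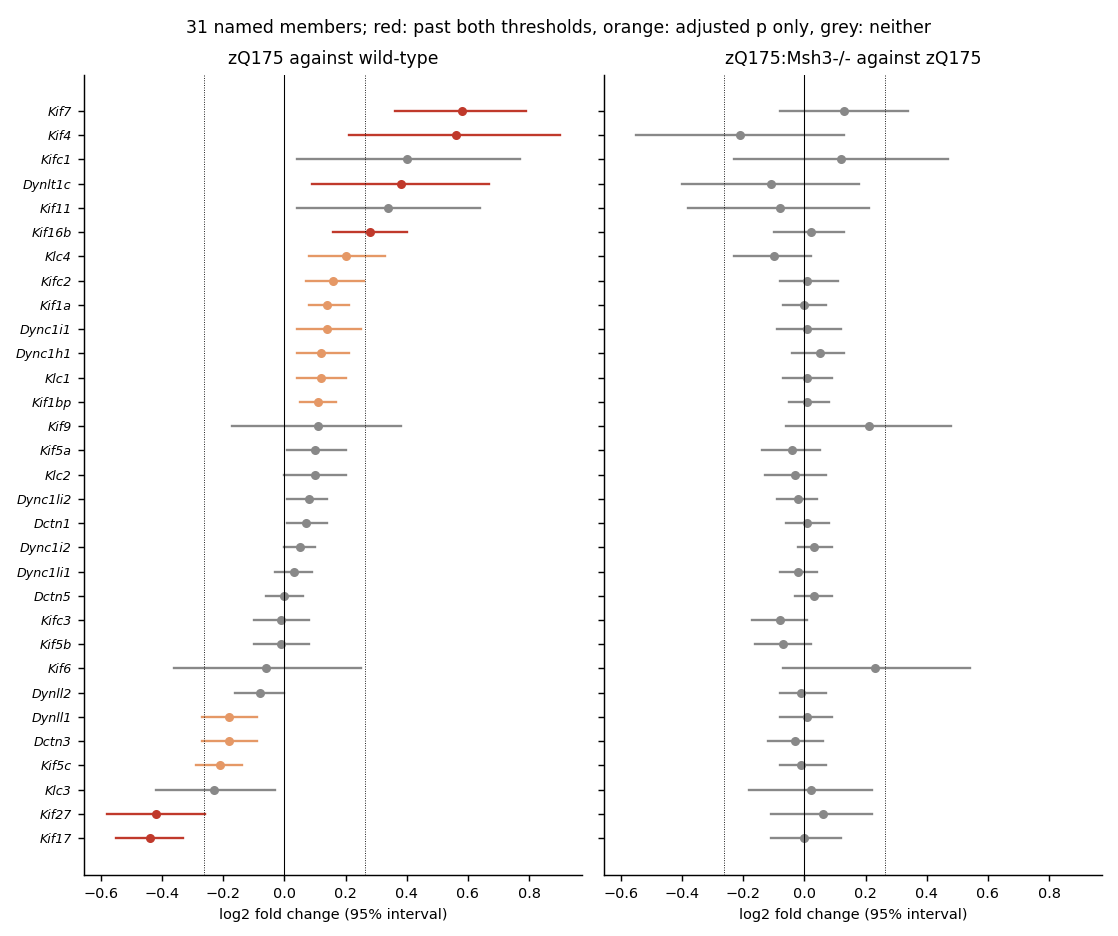
Log2 fold change with 95% interval for 31 named members in zQ175 against wild-type mice (left) and zQ175:Msh3-/- against zQ175 mice (right); dotted lines mark 1.2-fold. In the right panel no member is called, and the interval of each member but Kif4, Dynlt1c, Kifc1, Kif7, Kif6, Kif9 and Kif11 lies within the dotted lines.

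The genes that work with the motors were read from lists. Of 22 tested dynactin filament subunits, dynein regulators and activating adaptors, edgeR called 2 higher and 1 lower in the zQ175 against the wild-type group, 13.6% against 11.6% of all genes, and without Msh3 1, or 4.55% against 10.6%. Hook2, a dynein adaptor, ranged from 5.55 to 9.4 CPM in wild-type and from 9.15 to 12.9 CPM in zQ175 mice (log2 fold change 0.59, SE 0.102, edgeR adjusted p = 2.92e-05). Without Msh3 it was higher by 0.59 (adjusted p = 3.57e-05). Spdl1, which brings dynein to kinetochores, was higher by 0.56 (adjusted p = 0.0275) and did not pass without Msh3 (0.30, adjusted p = 0.361). Htt itself ranged from 152 to 189.7 CPM in wild-type and from 129 to 147 CPM in zQ175 mice, with a log2 fold change of -0.32 (SE 0.039, adjusted p = 4.76e-08). Without Msh3 it fell by 0.17 (adjusted p = 0.0016). The counts do not separate the knock-in allele from the wild-type one.

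Of 24 kinesin adaptors and cargo linkers edgeR called 0 in each of the 5 comparisons, against 11.6% and 10.6% of all genes in the 2 zQ175 comparisons. At an unadjusted edgeR p under 0.05 there were 10 in zQ175 against wild-type mice, where 36.5% of all genes lay under it. In zQ175:Msh3-/- against Msh3-/- mice there were 11, where 34.9% of all genes did. DESeq2 also called 0. Limma called 2 in the latter comparison, and the share of all genes it called is not given here. The list's median in zQ175 against wild-type mice was 0.05. Of 28 microtubule-associated proteins 3 were called higher in both zQ175 comparisons, 10.7% against the 11.6% and 10.6% of all genes called. Stmn2, a regulator of microtubule growth in axons, ranged from 68 to 110.3 CPM in wild-type and from 123 to 156 CPM in zQ175 mice (0.65, SE 0.0986, edgeR adjusted p = 7.16e-06). Camsap3, which holds microtubule minus ends, was higher by 0.28 (adjusted p = 0.000214), and Dcx, of migrating young neurons, by 0.39 (adjusted p = 0.00146). Of 5 markers of subventricular neuroblasts, 2, Dcx and Sox11, were called higher in both zQ175 comparisons, where 4.7% and 4.68% of all genes were. The others were not called, and the list's median log2 fold change was 0.14 and 0.50. All 5 markers summed to 40.5 to 67.5 CPM in wild-type and 57.3 to 87.9 CPM in zQ175 mice. The sum was 46.5 to 63 CPM in Msh3-/- and 63.4 to 89.9 CPM in zQ175:Msh3-/- mice. The part of neuroblasts, and that of cortical neurons, in the Dcx and Stmn2 values was not tested. Of 18 axonemal dynein chains 1, Dnah1, was called in each zQ175 comparison, 5.56% against 11.6% and 10.6% of all genes. Dnah1 was lower, at 10.2 to 15.1 CPM in wild-type and 6.13 to 8.67 CPM in zQ175 mice (-0.78, SE 0.0956, edgeR adjusted p = 5.37e-08). Without Msh3 its value was -0.82 (adjusted p = 2.9e-08). The list as a whole did not fall, with a median log2 fold change of 0.04 in the first comparison and 0.22 in the second.

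Promoter sequences, taken from RefSeq on GRCm38.p6, were matched for 51 of the 69 members. In the 250 bases before each start 6 motifs were searched on both strands. A member counted where any of its windows held the motif, while the 32851 promoters set beside the members were counted window by window. Genes with several windows thus had more chances of a match, and the member shares are not in the same unit as the others. The cyclic AMP response element TGACGTCA was found in 4 members, Kif17, Kif5c, Dctn3 and Klc1, or 7.84% of the 51, against 1.55% of 32851 promoters of the table. The Sp1 box GGGCGG was found in 32 members (62.7%, against 32.7%), the CCAAT box CCAAT in 24 (47.1%, against 33.8%), the TATA box TATAAA in 4 (7.84%, against 12.4%), the NRF1 core GCATGCGC in 3 (5.88%, against 2.26%) and the E-box CACGTG in 2 (3.92%, against 6.02%). Of the 4 members with the response element, Kif17, Kif5c and Dctn3 were lower past the adjusted p in both zQ175 comparisons and Klc1 was higher in the first. Dynll1 and Kif27 were also lower past the adjusted p in both, and no window of theirs held the element. The share of all genes with the element that were lower was not counted, and a link between the element and level was not tested. A match describes the letters only. The 4 windows are shown because they hold the full element, which was noticed after the members' values were known, and that of Kif7, the called member with the highest fold change, because it holds the Sp1 box at 5 places. Each reads 5′ to 3′ on the strand of its gene, with every match to 1 of the 6 motifs in capitals. The element began 86 bases before the start of Kif17 (chr4:138262001-138262250, plus strand), 26 before Kif5c (chr2:49619036-49619285, plus strand), 81 before Dctn3 (chr4:41723164-41723413, minus strand) and 33 before Klc1 (chr12:111758618-111758867, plus strand). The Kif7 window is chr7:79715708-79715957 on the minus strand.
Kif17: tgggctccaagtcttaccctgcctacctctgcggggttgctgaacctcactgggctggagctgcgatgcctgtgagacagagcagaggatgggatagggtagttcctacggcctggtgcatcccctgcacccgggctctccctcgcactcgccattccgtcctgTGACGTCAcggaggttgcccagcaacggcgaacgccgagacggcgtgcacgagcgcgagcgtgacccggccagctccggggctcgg
Kif5c: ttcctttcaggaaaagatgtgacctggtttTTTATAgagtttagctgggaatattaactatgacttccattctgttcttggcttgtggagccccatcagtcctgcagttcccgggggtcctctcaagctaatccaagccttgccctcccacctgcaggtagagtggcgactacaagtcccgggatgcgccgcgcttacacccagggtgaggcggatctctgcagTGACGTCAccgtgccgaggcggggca
Dctn3: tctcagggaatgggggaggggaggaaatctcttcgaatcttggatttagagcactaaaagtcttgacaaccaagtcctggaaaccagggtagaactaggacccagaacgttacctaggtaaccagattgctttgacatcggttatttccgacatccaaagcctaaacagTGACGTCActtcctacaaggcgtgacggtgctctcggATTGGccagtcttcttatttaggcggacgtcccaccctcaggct
Klc1: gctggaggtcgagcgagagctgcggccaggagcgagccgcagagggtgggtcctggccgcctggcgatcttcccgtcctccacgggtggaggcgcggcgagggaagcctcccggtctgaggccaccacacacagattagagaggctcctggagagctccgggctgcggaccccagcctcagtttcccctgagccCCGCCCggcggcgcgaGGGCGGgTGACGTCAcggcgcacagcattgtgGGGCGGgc
Kif7: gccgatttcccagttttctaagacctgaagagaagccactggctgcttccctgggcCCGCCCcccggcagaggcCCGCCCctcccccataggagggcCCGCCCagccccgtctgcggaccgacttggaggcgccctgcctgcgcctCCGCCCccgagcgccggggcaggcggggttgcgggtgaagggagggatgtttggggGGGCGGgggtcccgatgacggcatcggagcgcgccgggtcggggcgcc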

How the data were processed

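The authors selected polyadenylated striatal RNA and sequenced paired-end reads of 150 bases; the submitters' processing notes give the build GRCm38.p6, and the aligner, the counting program and its strand setting are not given in the sources used here. The authors deposited whole-number read counts per gene and mouse, without normalisation, and a second table, named as FPKM, whose columns each sum to 1000000 and which was therefore read as TPM values normalised by the authors for length and depth. Symbols, positions and biotypes came from GENCODE M21.

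Differences were fitted to the counts with edgeR 4.0.16 (R 4.3.3; TMM, filterByExpr by group, robust quasi-likelihood fit of 1 model of 4 genotypes) and adjusted over 16610 genes by the Benjamini-Hochberg method, with the thresholds of the study's methods, an adjusted p under 0.05 and 1.2-fold. An adjusted p is from this test unless another tool is named, and 95% intervals use 28 degrees of freedom. Where stated, log2 CPM of single members was also compared by an exact two-sided permutation test. The common biological coefficient of variation was 0.0985, and 3 reads make up 2.43e-05% of the smallest library. In counts simulated over 16610 genes for zQ175 against wild-type mice, edgeR recovered 98% of genes changed 2-fold and 75% of those changed 1.3-fold, with 5 other calls. The changed genes were a small set drawn only from genes above a minimum mean count in wild-type mice. These rates therefore do not cover the sparsest members.

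Mice were treated as separate animals, and p-values measure the spread between them; within a genotype the counts of each pair differed by more than sampling noise (chi-square per gene of at least 4.26). The alternatives were DESeq2 1.42.0, RLE size factors, testing every counted gene, sex or the replicate number in the model, fitting each pair of groups alone, limma 3.58.1 on log2(TPM + 0.1), with or without a minimum mean of 0.1 TPM, and on log2(TPM + 1), whose fold changes are on the scale with that pseudocount added, other fold thresholds and 5 chosen after seeing the data (7 mice left out, 3 marker sums as covariates, near-identical copies summed). Summaries used Python 3.11.15, pandas 2.3.3 and scipy 1.17.1.

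The members, the gene lists and the rule for named members were chosen with earlier results of these data known. The rule names members past both thresholds, up to 6 past the adjusted p alone, the kinesin-1 and dynein-1 chains, Kif1a and Dctn1, the 3 most abundant members, the 3 nearest to no change and up to 8 called genes of the lists. Other genes named were chosen after their values were seen.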

Additional observations from a re-analysis of the deposited data

Results flagged for a closer look

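Among 124 sets of 8 mice (31 named members in 4 genotypes), 6 held a mouse whose gap to its nearest neighbour, as a share of the whole range, was above Dixon's critical value at 95% for 8 samples. Chance flags about 1 set in 20, here 6.2. For the light chain Dynll2 this share was 0.71 in zQ175 mice, where male 2 had 722 CPM against 814 to 855 in the others, and 0.672 in Msh3-/- mice, where female 4 had 712 CPM against 840.0 to 911. Kif4 gave 0.575 in zQ175:Msh3-/- mice, with female 1 at 0.838 CPM and the others between 1.37 and 1.94. Kifc3 gave 0.566 in zQ175:Msh3-/- mice, with female 3 at 45.6 CPM above a range of 39.6 to 42.1. Kif1a gave 0.54 in Msh3-/- mice, with female 3 at 1048 CPM below a range of 1113 to 1172. Dync1i2 gave 0.531 in wild-type mice, with female 3 at 133 CPM above a range of 119 to 125.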

How the results depend on the processing

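Kif17 and Kif7 in both zQ175 comparisons, Kif16b and Kif27 in zQ175 against wild-type mice and Kif9 in zQ175:Msh3-/- against Msh3-/- mice kept their direction and call under the 14 alternatives to the fit, and no called value turned its direction. Of 182 values of the 13 calls under these alternatives, 32 were no longer called. In the other direction, 6 values of named members that the main fit did not call were called under an alternative. In zQ175 against wild-type mice these were Kif11 under 3 alternatives and Kifc1 and Klc3 under 1 each. In zQ175:Msh3-/- against Msh3-/- mice it was Dynlt1c under 1. In zQ175 against wild-type mice the adjusted p alone gave 21 members and a minimum fold of 1.5 gave 0 in place of 6, though 538 genes passed the latter. In zQ175:Msh3-/- against Msh3-/- mice the counts were 21 and 1 (Kif7) in place of 7, and DESeq2, no filter on low counts, and leaving out the 7 mice high in choroid plexus markers each gave 4, namely Kif17, Kif27, Kif7 and Kif9. The share of all genes called in this comparison at 1.5-fold, under DESeq2, without the filter or without the 7 mice is not given here. A fall in the members called thus cannot be told from a fall over all genes. The cause was not tested.

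The replicate numbers did not pair the mice: same-numbered mice of different genotypes had correlations of their deviations from -0.195 to 0.269 with a mean of -0.00709 over 45 pairs. With a replicate block 7 members were called in zQ175 against wild-type and 5 in zQ175:Msh3-/- against Msh3-/- mice, and 0 in the other comparisons. The share of all genes called is not given here for the block, nor for the limma fit that follows. On the TPM scale, limma on log2(TPM + 0.1) gave medians over all genes of 0.07 and 0.09 in the zQ175 comparisons and 59.9% and 68.5% of calls higher, against 40.6% and 44% for the counts; the members called were 3 higher and 2 lower, and 6 higher and 1 lower. Depth limits the sparse members: the standard errors of the 63 members in zQ175 against wild-type mice ran from 0.0262 to 0.334 on the log2 scale.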

Other observations

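Summed over a family, the levels of several transport genes were higher in mice with the zQ175 allele on the TPM scale, on which the median log2 fold change of all genes was itself 0.07 in zQ175 against wild-type mice and 0.09 in zQ175:Msh3-/- against Msh3-/- mice. The 5 heavy, intermediate and light intermediate chains of dynein-1 summed to between 501 and 546 TPM in wild-type and between 564 and 609 TPM in zQ175 mice, and to between 507 and 543 TPM in Msh3-/- and between 573 and 606 TPM in zQ175:Msh3-/- mice. The groups did not overlap in either comparison. The same held for Kif1bp alone, at 113 to 126 against 128 to 142 TPM and 115 to 129 against 132 to 148 TPM. The 4 kinesin light chains did not overlap in the first comparison (604 to 696 against 697 to 777 TPM). They did in the second (625 to 728 against 698 to 835 TPM). How often other genes or sums of genes separate on this scale was not counted. The 6 dynactin subunits reached 769 to 849 TPM in wild-type and 848 to 885 TPM in zQ175 mice, and 818 to 873 TPM in Msh3-/- and 843 to 903 TPM in zQ175:Msh3-/- mice, with overlapping groups in both comparisons. The 9 dynein light chains gave means of 1615 ± 43.6 and 1639 ± 57 TPM (SD, n = 8), with overlapping groups. These sums were chosen after their values were seen and are given with no test.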
